A study of Mus musculus with 12 samples.

Results

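The brain-only CTCF sites are the genomic sites that carried a CTCF peak in wild-type brain and no overlapping peak in wild-type heart or wild-type lung. They were found by merging the regions of 6 CTCF peak lists wherever at least 1 bp overlapped, which gave 56248 sites over the whole series. Of these, 35523 carried the wild-type brain list and 4710 of the 35523 (13.3%) were brain-only. The other 30813 wild-type brain sites also had a wild-type lung or heart peak and are called shared sites. Among them, 19565 had a peak in all 3 organs, 11088 in brain and lung, and 160 in brain and heart.

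CTCF ChIP-seq was performed on brain, heart and lung of C57BL/6 mouse embryos at E18.5, near the end of gestation. The study's methods name the mice as C57BL/6 N. The embryos were wild type or homozygous for R567W in Ctcf, an allele introduced with CRISPR/Cas9, so that the R567W tissues held no wild-type Ctcf allele. There was 1 ChIP library and 1 input library per organ and genotype, all with added chromatin of HEK293T, a human embryonic kidney cell line, as a spike-in. The tissues were homogenised, so a site seen in 1 cell type of an organ and a weaker site seen in all its cells cannot be told apart, and peak lists hold no expression values against which the organ label could be checked.

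CTCF is a zinc-finger protein that halts cohesin on chromatin and thereby places the ends of many loops and the borders of many domains. Its central fingers read a core motif, and its last fingers contact a short upstream motif present at a part of its sites. R567 lies in the last of these fingers. Most CTCF sites are bound in many tissues, while sites that differ between tissues are known to have weaker motifs and to depend more on DNA methylation at CpGs within the motif. In rodents, copies of a CTCF motif have also been spread through the genome by B2 short interspersed elements.

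The sequences of brain-only sites came in recognisable forms, and a few of the strongest are printed here to show what CTCF met at these sites. Each line gives 49 bases of the GRCm38 genome, 5′ to 3′ on the strand of the motif, with the 19 columns of the core motif in capitals and the 30 bases 5′ of it, where an upstream motif would lie, in lower case. The first 4 are among the 8 brain-only sites of highest wild-type fold enrichment, the next 3 are among the 6 strongest without an R567W brain peak, and the last 4 are the strongest whose core motif lay in an annotated repeat and held the letters AGAAGAGGG.
intergenic, chromosome 7: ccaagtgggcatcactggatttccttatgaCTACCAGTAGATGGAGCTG
Dpp6 promoter: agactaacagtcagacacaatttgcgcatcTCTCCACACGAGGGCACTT
Dpp6 intron: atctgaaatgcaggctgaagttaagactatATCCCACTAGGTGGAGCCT
Fam135b intron: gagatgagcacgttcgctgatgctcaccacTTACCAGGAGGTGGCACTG
far from any coding gene, chromosome 3: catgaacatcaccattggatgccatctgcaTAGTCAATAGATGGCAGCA
in an olfactory receptor cluster, chromosome 2: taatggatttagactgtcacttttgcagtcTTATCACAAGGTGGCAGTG
intergenic, chromosome 16: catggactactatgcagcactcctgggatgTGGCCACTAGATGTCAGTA
repeat, chromosome 8: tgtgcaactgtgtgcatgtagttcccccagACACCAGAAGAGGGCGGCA
repeat, chromosome 10: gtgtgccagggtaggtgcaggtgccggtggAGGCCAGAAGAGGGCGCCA
repeat, chromosome 17: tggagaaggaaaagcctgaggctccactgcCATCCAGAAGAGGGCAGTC
repeat, chromosome 3: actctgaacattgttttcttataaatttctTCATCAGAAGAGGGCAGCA
The first 7 of these motifs lay outside repeats. The last 4 share the 9 capitals AGAAGAGGG, which the account of repeats below takes up.

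The sites were chosen by the presence of a peak in wild-type brain and its absence in wild-type heart and lung, and their wild-type brain values were low. Fold enrichment, the deposited ratio of reads at the summit to the local background with a pseudocount of 1, had a median of 5.92 over the brain-only sites, with quartiles of 4.55 and 7.77 and a range of 2.31 to 34.2. It had a median of 8.51 at sites of brain and lung and of 21.3 at sites of all 3 organs. The median number of reads at the summit was 16 at brain-only sites and 48 at shared sites, and the median peak width was 238 bp and 367 bp. These values come from the library that defined the sites and are given as a description, with no test. The lowest −log10 q-value of a member was 1.36, shared by sites such as chr10:78248088-78248279 with a fold enrichment of 2.99.

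**Figure D1:**
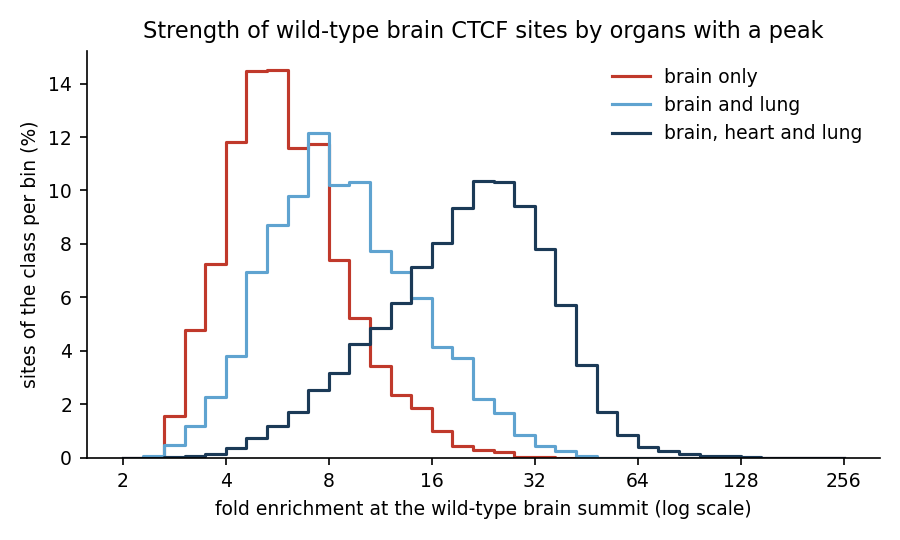
Distribution of fold enrichment at the wild-type brain summit, on a log scale, for sites with a wild-type peak in brain only, in brain and lung, and in all 3 organs, each as a percentage of its class per bin. The brain-only sites sit lowest, with a median of 5.92, against 8.51 for brain and lung and 21.3 for all 3 organs.

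Most brain-only sites were far from the regions that would have removed them. The median distance to the nearest wild-type heart or lung region was 10364 bp. In all, 2398 sites (50.9%) were over 10 kb and 512 (10.9%) over 100 kb from such a region, while 471 (10.0%) were within 1 kb of one. The nearest members, chr1:86487772-86488180 and chr15:55112418-55112799, lay 5 bp from such a region, and the shared site of smallest direct overlap, at chr5:115158131-115159073, overlapped by 2 bp. The wild-type heart list was the shortest of the 3 with 21059 regions, against 36034 in brain and 44386 in lung, so the rule was decided mainly by the lung list.

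The first question was whether the sites were seen again in the R567W brain, a library that the rule did not use. A peak was present in R567W brain at 2445 of the 4710 brain-only sites, 51.9% (95% Wilson interval 50.5 to 53.3), against 81.3% of all wild-type brain sites and 85.8% of shared sites. The difference from shared sites was -33.9 percentage points (95% Newcombe interval -35.4 to -32.5). With the 3 wild-type lists cut to equal length by −log10 q-value, the rule found 2090 sites, of which 86.0% had the R567W brain peak, and the difference was -9.45 points. All intervals on shares cover counting error only, since 1 library stood behind each organ and genotype and sites of 1 library are not replicates. In the R567W list of their own organ, 29.6% of lung-only and 2.12% of heart-only sites were seen again. These R567W lists differed in length, with 38390 regions in brain, 32498 in lung and 11515 in heart, and the part of list length in these shares was not tested.

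The recurrence in R567W brain moved with strength. In 4 classes of equal size ordered by wild-type fold enrichment, it was 37.5%, 48.1%, 52.5% and 69.5% from the weakest to the strongest. When shared sites were given the same spread of fold enrichment as the brain-only sites, 67.6% of them had an R567W brain peak, which left a difference of -15.7 points (-17.4 to -14). With the spread of summit reads matched instead, the difference was -12.1 points (-13.8 to -10.3). With all wild-type brain sites cut into 10 classes of equal size, the weakest class had the peak at 40.3% of 1781 brain-only sites and 63.0% of the shared sites, and class 6 at 79.9% of 149 brain-only sites and 90.3% of the shared sites.

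The organ restriction was read in the R567W heart and lung libraries. A peak in R567W heart was present at 12 brain-only sites (0.255%), against 31.5% of all wild-type brain sites. The R567W heart list held few organ-restricted sites of any kind, with 2.12% of heart-only and 0.641% of lung-only sites. The heart shares were not matched for fold enrichment. In R567W lung, 589 brain-only sites (12.5%) had a peak, against 72.4% of all wild-type brain sites. In the reverse direction, 25.3% of lung-only sites had a peak in R567W brain. A peak in either organ was present at 594 brain-only sites, 12.6% (11.7 to 13.6), against 72.5% of all wild-type brain sites and 81.7% of shared sites. With wild-type lists of equal length this share was 54.9% of the 2090 sites. At equal fold enrichment, 59.0% of shared sites had an R567W lung peak, so that the difference in lung was -46.5 points (-47.9 to -45.1).

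**Figure D2:**
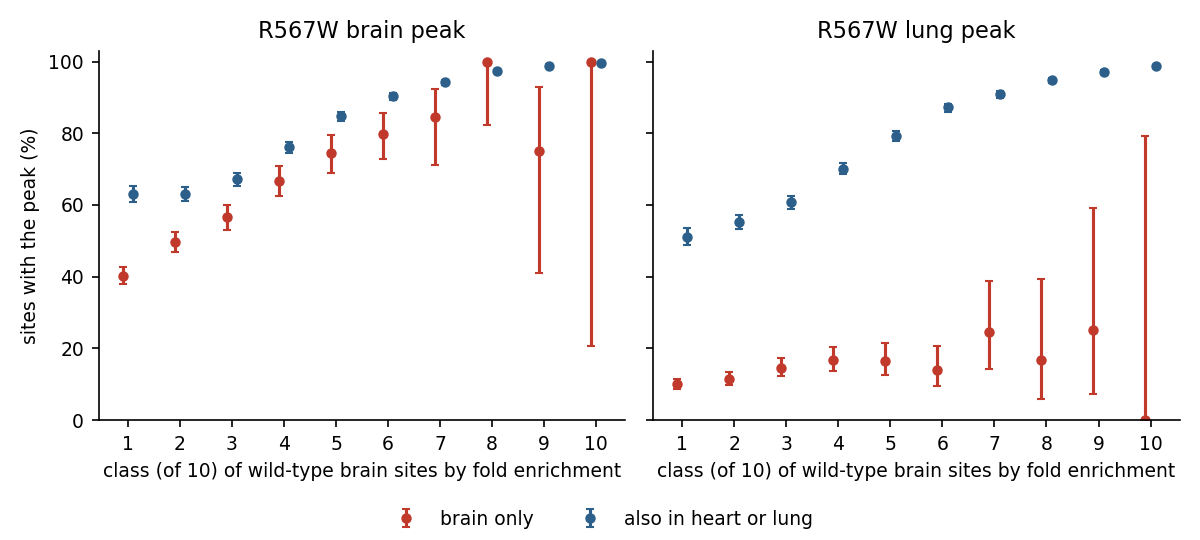
Percentage of sites with a peak in R567W brain (left) and R567W lung (right) in each of 10 classes of equal size of the 35523 wild-type brain sites ordered by fold enrichment, for brain-only sites and for sites also in heart or lung, with 95% Wilson intervals. In brain the brain-only sites go from 40.3% in class 1 to 79.9% in class 6, while in lung they stay far below the shared sites. Classes 7 to 10 hold 45, 18, 8 and 1 brain-only sites.

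By their R567W peaks the 4710 sites fell into 4 classes. A peak in R567W brain and in neither other R567W organ was present at 1947 sites (41.3%), and no R567W peak in any organ at 2169 (46.1%). A peak in R567W brain together with R567W heart or lung was present at 498 (10.6%), and a peak in R567W heart or lung without brain at 96 (2.04%). The 1947 sites made up 16.9% of the 11526 sites with a peak in R567W brain alone among the R567W organs. Of those 11526 sites, 5177 (44.9%) had no wild-type peak in any organ and 4402 (38.2%) had a wild-type heart or lung peak.

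These classes differed in position and sequence. Promoters, here summits within 1 kb of an annotated transcript start, held 22.1% of the 1947 sites seen in R567W brain alone, 11.4% of the 2169 without an R567W peak and 35.9% of the 498 seen in R567W brain and another organ. The difference between the first 2 classes was 10.7 points (8.47 to 13). Summits in repeats were found at 25.9%, 34.8% and 19.7% of these classes in the same order, and the difference between the first 2 was -8.83 points (-11.6 to -6.02). The core motif was found at 73.1% and 69.2% of the first 2 classes, a difference of 3.89 points (1.12 to 6.65). Wild-type fold enrichment moved with these classes, with medians of 6.31, 5.32 and 6.65, and its part in the differences was not tested.

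The strongest brain-only site was intergenic, at chr7:40942474-40942999, 43416 bp from the start of Vstm2b. It had a fold enrichment of 34.2 from 102 reads in wild-type brain and of 25.5 from 76 reads in R567W brain, and no peak in R567W heart or lung. The next strongest, chr18:28724904-28725577, in an exon of the transcript AC103939.1, had 30.7 from 82 reads in wild-type brain, no core motif and no R567W peak in any organ.

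Dpp6, which encodes an auxiliary subunit of the neuronal A-type potassium channel, held 2 of the 8 strongest sites. The promoter site at chr5:27048100-27048918, 856 bp from a transcript start, had a fold enrichment of 28.1 from 75 reads in wild-type brain and of 42.0 from 126 reads in R567W brain. The intronic site at chr5:27545004-27545434 had 27.7 from 74 reads in wild-type brain and 13.6 from 43 reads in R567W brain. The 2 sites of this gene thus stood at nearly the same wild-type level and on opposite sides of it in the R567W library.

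The site at the start of Grik2, which encodes the kainate receptor subunit GluK2, lay at chr10:49788384-49789080, 43 bp from that start and 18 bp from that of the transcript Gm48123. Its fold enrichment was 27.4 from 73 reads in wild-type brain and 27.1 from 135 reads in R567W brain, and R567W lung had 9.73 from 28 reads. A further Grik2 site in the gene's intron, at chr10:49784864-49785277, had 23.6 from 68 reads in wild-type brain and 9.21 from 37 reads in R567W brain. Neither of the pair had a core motif. The nearest wild-type heart or lung region was 868308 bp from the promoter site.

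Of the other strongest sites, the promoter of B230208B08Rik at chr4:78211725-78212332 had 27.6 in wild-type and 18.2 in R567W brain, and an intronic site of Fam135b at chr15:71483289-71483730 had 26.4 and 24.6. The promoter site of Gm48022, chr10:70814278-70814769, had 27.4 in wild-type brain, 27.2 in R567W brain and 16.9 in R567W lung.

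The strongest sites without an R567W brain peak, as named here, were mostly intergenic. Intergenic sites also made up 42.7% of the strongest of the 4 strength classes of brain-only sites, with or without that peak. Whether intergenic position went with the absence of the peak was not tested. The strongest site without the peak, after the chromosome 18 site, was chr3:43782989-43783333, with a fold enrichment of 26.3 from 70 reads. It lay 1595225 bp from the nearest protein-coding start, Pcdh10. It was followed by chr1:98748922-98749185 with 18.9 from 50 reads, chr2:89544564-89544838 among olfactory receptor genes with 56 reads at its summit, chr14:66424129-66424522 with 17.8 from 47 reads and chr16:62414583-62414868 with 17.8 from 47 reads. The chromosome 14 site lay 79986 bp from the start of Stmn4, a neuronal microtubule regulator, and had no core motif.

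Among sites with an R567W brain peak and no other R567W peak, chr15:65703438-65704000, 83267 bp from the start of Efr3a, had 24.3 in wild-type and 35.6 in R567W brain. The site chr8:55104101-55104521, 149446 bp from the start of the neuronal membrane glycoprotein gene Gpm6a, had 23.7 and 25.5. The site chr12:98620862-98621407 near Spata7 had 23.3 and 30.1.

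Some of the 12 sites with an R567W heart peak also had an R567W lung peak. Of these, a site in an intron of the kinase gene Ptk2b, chr14:66161654-66162159, had a fold enrichment of 18.6 in wild-type brain, 18.9 in R567W brain, 3.42 in R567W heart and 7.84 in R567W lung. The site chr14:110777490-110777909, 22608 bp from the start of the neuronal adhesion gene Slitrk6, had 14.1, 8.98, 4.45 and 9.90 in the same libraries. Both brain values were above the heart and lung values at the Ptk2b site, while at the Slitrk6 site R567W lung was above R567W brain.

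At the 2445 sites with a peak in both brain libraries, the reads at the summit were compared after scaling each library by its background level. The log2 ratio of R567W to wild type had a median of 0.06, with quartiles of -0.32 and 0.47, and 1352 sites (55.3%) were higher in R567W. Since the wild-type list chose the sites and only sites with an R567W peak enter, and since 1 library of each genotype was compared, the ratio is a description. Promoter sites had a median of 0.36 and were higher in R567W at 431 of 610 (70.7%), and the other 1835 had a median of 0.00 and were higher at 50.2%. Shared sites had medians of 0.41 at promoters and -0.16 elsewhere, so the gap between promoters and other sites was present in both classes. The line in the plot of summit reads marks equality after this scaling, which carries no spike-in correction.

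**Figure D3:**
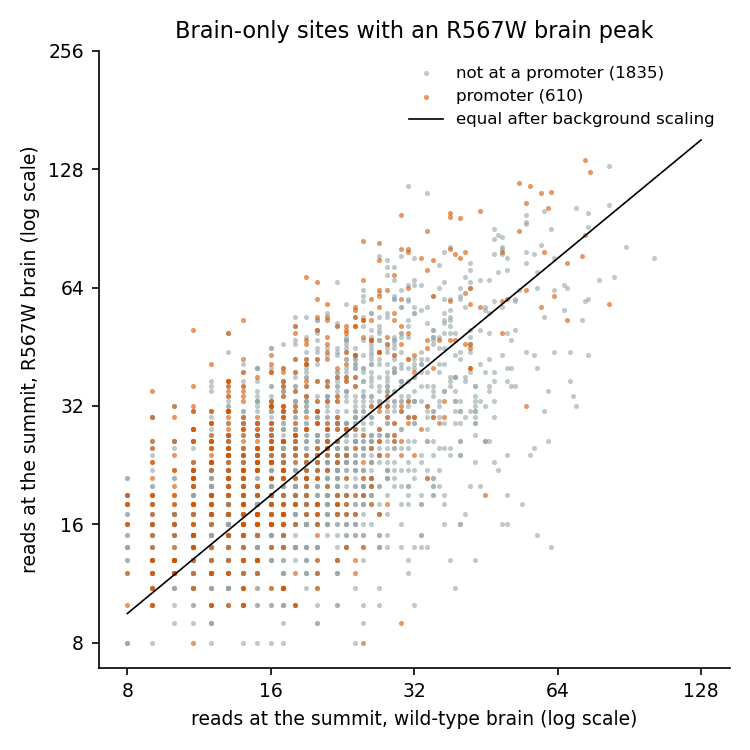
Reads at the summit in wild-type brain (x axis) and R567W brain (y axis), both on log scales, at the 2445 brain-only sites with an R567W brain peak, 610 at promoters and 1835 elsewhere. The line marks equal levels after background scaling, and 431 of the 610 promoter sites lie above it.

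The core motif was searched within 100 bp of each summit with a matrix learned from the strongest wild-type brain peaks. It was found at 3378 brain-only sites, 71.7% (70.4 to 73), against 87.6% of all wild-type brain sites, 90.0% of shared sites and 69.1% of lung-only sites. At a stricter motif p of 1e-05 it was found at 43.6% of brain-only sites, and no share of the other classes is given at that setting. Windows centred 1100 bp to either side of the brain-only summits held it at 5.94% and 6.33%. The difference from shared sites was -18.3 points (-19.6 to -17), and -7.35 points (-8.93 to -5.77) at equal fold enrichment. Among core sites the median motif score was 13.5 at brain-only and 16.4 at shared sites. The strongest of the 10 classes of wild-type brain sites held 1 brain-only site, so the matrix was learned almost wholly from shared sites. The part of this in the lower brain-only score was not tested. Outside promoters the motif was present at 76.9% of brain-only sites, and at promoters at 49.3%, against 91.1% and 71.6% of all wild-type brain sites and 80.4% and 36.8% of lung-only sites.

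The motifs of brain-only sites had a different make-up from those of shared sites. Columns of the motif are counted from 1 at the first capital. An A at column 8, as in the 4 repeat sequences, was present in 46.1% of brain-only and 25.5% of shared core motifs. At equal fold enrichment that difference was 6.78 points (4.76 to 8.79), and lung-only motifs had the A at 45.0%. A T at column 17 was present in 29.1% of brain-only and 10.2% of shared motifs, a difference of 8.74 points (6.94 to 10.5) at equal fold enrichment, and in 26.9% of lung-only motifs. Outside repeats the differences from shared sites were 3.88 points (2.14 to 5.72) for the A and 4.87 points (3.61 to 6.27) for the T. A T at column 12 was present in 24.5% of brain-only and 33.0% of shared motifs, a difference of -8.55 points that turned to 2.89 points (1.22 to 4.57) at equal fold enrichment. The word AGAAGAGGG was present in 28.6% of brain-only core motifs (967 of 3378) and in 9.87% of shared ones, a difference of 18.8 points (17.2 to 20.3), and of 5.25 points (3.46 to 7.05) at equal fold enrichment. Lung-only core motifs held it at 29.1%, and the difference from brain-only sites was -0.48 points (-2.27 to 1.34). The matrix was read on the motif's own strand and the word was searched on that strand alone.

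Many of these motifs lay in repeats. A soft-masked core motif, meaning one in sequence that the reference genome marks as repetitive, was found at 1328 of the 3378 brain-only core sites (39.3%), against 16.5% of shared and 41.7% of lung-only core sites. The difference from shared sites was 22.9 points (21.2 to 24.6), and 5.59 points (3.65 to 7.53) at equal fold enrichment. Of the 1328 repeat motifs 71.8% held AGAAGAGGG, and 86.6% had the A at column 8, while of the 2050 motifs outside repeats 0.683% held the word and 19.9% had that A. The reference gives no repeat family, so the elements are not named here. By summit, 29.3% of brain-only sites lay in repeats, against 16.1% of all wild-type brain sites, 14.1% of shared and 28.4% of lung-only sites.

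Of the 4 repeat sites printed, the strongest was chr8:44025940-44026288, with a fold enrichment of 16.3 in wild-type brain, 9.27 in R567W brain and 6.26 in R567W lung. The sites chr10:126679197-126679604 and chr17:58870873-58871148 had 15.9 and 14.9 in wild-type brain and 12.8 and 11.8 in R567W brain, and chr3:71096120-71096376 had 14.8 in wild-type brain and no R567W peak. All 4 were intergenic. Over all brain-only core sites, an R567W brain peak was present at 40.5% of those with AGAAGAGGG and 58.6% of those without it, a difference of -18.1 points (-21.7 to -14.4). Median wild-type fold enrichment was 5.18 with the word and 6.64 without, and its part in that difference was not tested. Shared core sites differed in the same direction, with 68.8% and 89.0% and a difference of -20.2 points (-22.0 to -18.5).

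CpGs in the motif were also less frequent at brain-only than at shared sites. The motif allows a CpG at columns 15 and 16. It was present in 25.2% of brain-only core motifs and 34.5% of shared ones, a difference of -9.33 points (-10.9 to -7.74). At equal fold enrichment the difference was -8.68 points (-10.5 to -6.83), and outside repeats it was -12 points (-13.9 to -9.98). Lung-only motifs held it at 27.5%, and the difference of brain-only from lung-only motifs was -2.26 points (-3.99 to -0.50).

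The same CpG went with recurrence in R567W brain. Of the 851 brain-only motifs with it, 61.5% had an R567W brain peak, and of the 2527 without it 50.7%, a difference of 10.7 points (6.88 to 14.5). Wild-type fold enrichment was near equal in both, with medians of 5.92 and 6.16, and at equal fold enrichment the difference was 12.7 points (8.99 to 16.4). At sites outside promoters and with the motif outside repeats it was 10.0 points (4.20 to 15.6). Shared sites differed in the same direction by 6.77 points (5.99 to 7.53).

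An upstream motif was taken as TGCAGTNCC with at most 2 mismatches within the 30 bases 5′ of the core. It was found at 868 of the 3378 brain-only core sites, 25.7% (24.3 to 27.2), against 28.2% of all wild-type brain core sites and 28.5% of shared ones. The mirrored window 3′ of the core held it at 13%. With at most 1 mismatch it was found at 433 sites, 12.8% (11.7 to 14) of the brain-only and 12.0% of the shared core sites, so the order of the classes was not kept. At 369 of the 433 (85.2%) it ended 5 bases before the first core column, the spacing seen at 78.2% of shared sites. A brain-only site in an intron of Cspg4, the NG2 proteoglycan of oligodendrocyte precursors, showed this arrangement with no mismatch, and its upstream word ends 5 bases before the capitals.
Cspg4 intron: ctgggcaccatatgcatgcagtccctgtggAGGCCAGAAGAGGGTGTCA
This site at chr9:56875600-56875857 had a fold enrichment of 7.03 in wild-type brain and no R567W peak, and it lay in a repeat.

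Sites with the upstream motif were seen in R567W brain less often. An R567W brain peak was present at 49.9% of brain-only core sites with it and 54.7% of those without it, a difference of -4.78 points (-8.62 to -0.93). With a −log10 q-value of at least 5 it was -8.45 points when asked of all lists and -8.01 points when asked of the wild-type brain list alone. With at most 1 mismatch the difference was -8.31 points (-13.3 to -3.27). For a match in the mirrored window it was -1.20 points (-6.20 to 3.77). Shared sites differed by -7.66 points (-8.63 to -6.71) for the upstream motif and by -2.99 points (-4.26 to -1.78) for a mirrored match. Where a peak was present in both brain libraries, the median log2 ratio was -0.07 at the 433 sites with the upstream motif and 0.08 at the 1372 with a core motif alone.

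**Figure D4:**
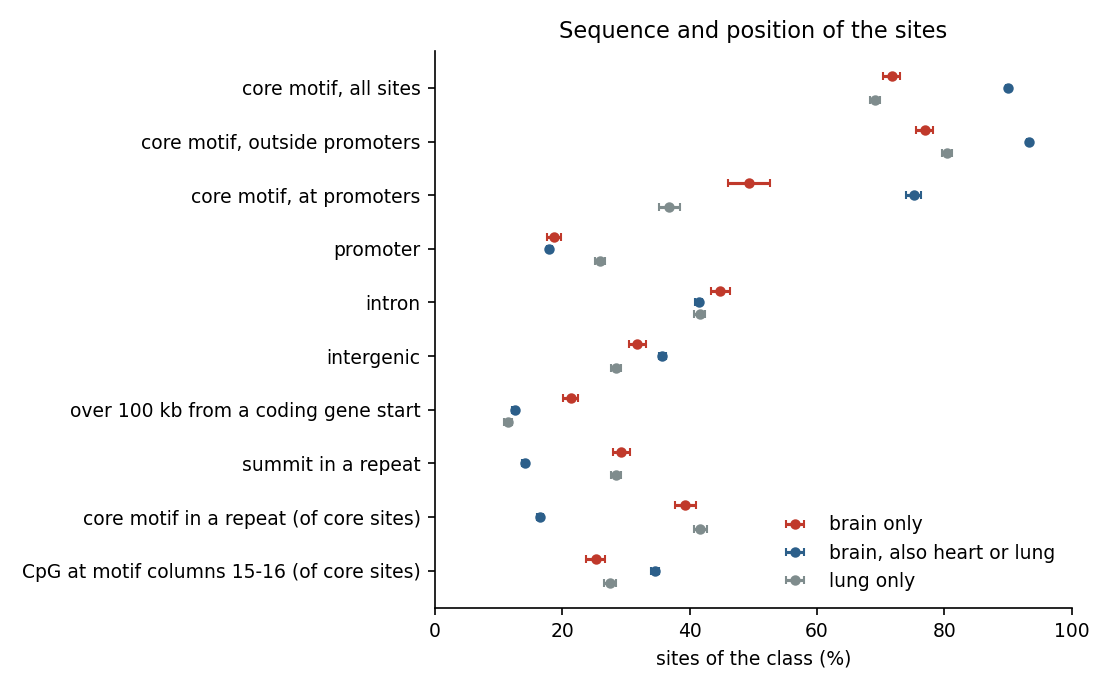
Percentage of sites in each sequence or position class for brain-only sites, sites of brain and another organ, and lung-only sites, with 95% Wilson intervals. The brain-only sites lie with the lung-only sites for repeats (29.3% and 28.4%). They lie apart from both other classes shown for distance from coding starts (21.3%), without matching for fold enrichment.

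By position, 879 brain-only sites (18.7%) were at promoters, against 18.1% of all wild-type brain sites. Exons held 4.80%, introns 44.8% and the space between genes 31.7%, near the 4.93%, 41.9% and 35.2% of all wild-type brain sites. The intergenic share differed from that of shared sites by -3.96 points (-5.38 to -2.51). That difference turned to 4.14 points (2.53 to 5.75) at equal fold enrichment and 2.74 points (1.09 to 4.40) with summit reads matched. The promoter share differed from that of shared sites by 0.71 points (-0.46 to 1.92), and by -8.29 points (-9.78 to -6.80) at equal fold enrichment. With the spread of summit reads matched instead, it differed by -4.32 points (-5.81 to -2.83). Sites over 100 kb from the start of any protein-coding gene made up 21.3% of brain-only sites, 12.5% of shared sites and 11.4% of lung-only sites. The differences were 8.79 points (7.59 to 10.0) and 9.85 points (8.57 to 11.2), and were not matched for fold enrichment. Among the shared sites, the 160 of brain and heart had 24.4%. Of the 4 strength classes of brain-only sites, the weakest held 28.5% promoters and 23.2% intergenic sites, and the strongest 13.2% and 42.7%.

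Promoter sites were seen again in R567W brain more often than other brain-only sites. An R567W brain peak was present at 610 of 879 promoter sites (69.4%) and at 47.9% of the others, a difference of 21.5 points (18 to 24.9). At shared sites that difference was 8.95 points (8.13 to 9.73). Windows that were rich in CpG, with a GC content of at least 55% and a ratio of observed to expected CpG of at least 0.6, made up 44.3% of brain-only promoter sites, 50.4% of shared and 66.2% of lung-only promoter sites. The difference between brain-only and lung-only promoters was -22.0 points (-25.6 to -18.3).

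The brain-only sites were then set against genes of neural cells. Of 221 genes in 7 neural lists, 89 (40.3%) held a brain-only site within the gene or 10 kb of it, against 15.9% of all 21924 protein-coding genes and 28.1% of protein-coding genes weighted to the same lengths. Of 121 genes of heart muscle, lung, blood and vessels, 20 (16.5%) did, against 16.2% by length. Long genes hold more sites of every kind, so the share of a gene's own brain sites is also given. Around the neural genes, 168 of 806 wild-type brain sites were brain-only, 20.8% (18.2 to 23.8), against 13% around all protein-coding genes and 10.8% (7.61 to 15.1) around the other 4 lists. Lung-only sites showed another order, with 19.8% of wild-type lung sites around the neural genes, 28.7% around all protein-coding genes and 32.8% around the other 4 lists. Among those 4 it was 40.5% for the lung list and 18.8% for cardiac muscle, and among the neural lists it reached 31.2% for neural progenitors and glia.

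Within the neural lists the brain-only share of sites was 28.6% for GABAergic neurons and inhibitory receptors (12 of 42 sites), 25.4% for the postsynaptic density and glutamate receptors (31 of 122), 21.8% for neuronal transcription factors (26 of 119) and 20.6% for axon guidance and neural adhesion (48 of 233). It was 20.4% for the synaptic vesicle and active zone (22 of 108), 19.8% for neuronal ion channels (25 of 126) and 11.7% for neural progenitors and glia (7 of 60). The intervals of the single lists overlapped one another. Of the 168 sites, 100 (59.5%) had an R567W brain peak, against 53.4% of the 3445 brain-only sites around all protein-coding genes. A peak in R567W brain alone was present at 84 of the 168 and at 1436 of the 3445.

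**Figure D5:**
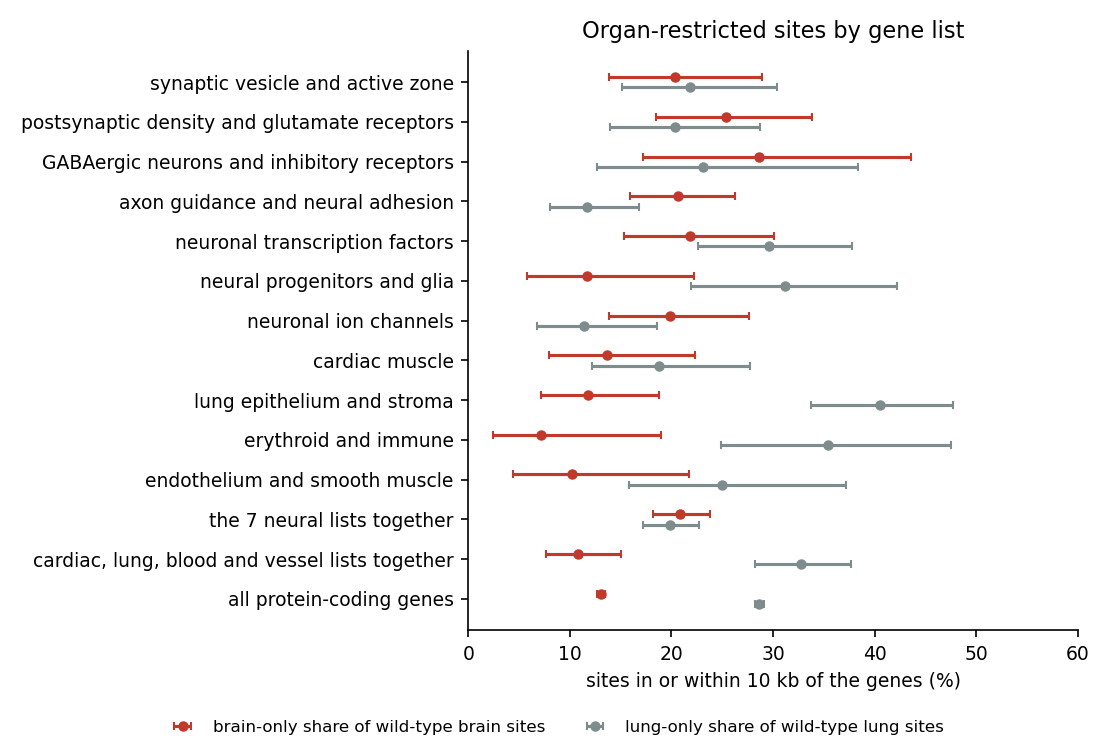
Brain-only share of wild-type brain sites and lung-only share of wild-type lung sites in or within 10 kb of the genes of each list, with 95% Wilson intervals. The brain-only share was 20.8% over the 7 neural lists and 10.8% over the other 4, and the lung-only share was 19.8% and 32.8%.

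In the inhibitory receptor list, an intronic site of Gabrg3, a subunit gene of the GABA-A receptor, at chr7:57384054-57384642 had a fold enrichment of 24.6 in wild-type and 18.6 in R567W brain. Gabra2, which encodes the α2 subunit, had 5 wild-type brain sites and all 5 were brain-only. Their wild-type values were 8.14, 9.62, 7.83, 17.2 and 10.3 along the chromosome, and R567W brain had no peak at the first 2 and values of 12.9, 15.4 and 10.5 at the others. The 3 sites that recurred were the ones nearest the transcript start, within chr5:71092465-71096542. Gabra2 and the genes Grik3 and Grid1 below were chosen after their values were seen.

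In the glutamate receptor list, Grik3, another kainate receptor gene, had 5 brain-only sites among 6. Its 4 recurring sites had wild-type values of 8.08, 5.51, 6.65 and 5.65 and R567W values of 21.4, 16.9, 11.1 and 7.92, so all 4 were higher in the R567W library. Grid1, which encodes the delta receptor GluD1, had 6 among 9. The strongest, chr14:34823082-34823655, had 22.3 from 63 reads in wild-type and 21.2 from 63 reads in R567W brain. The Grik2 sites described above led this list.

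In the axon guidance list, an intronic site of Slit3, a secreted guidance ligand, at chr11:35452384-35452772 had 23.3 from 62 reads in wild-type and 4.97 from 14 reads in R567W brain. This site lay 284 bp from a wild-type heart or lung region. The promoter of Dcc, the netrin receptor, at chr18:72350964-72351471, had 22.6 from 60 reads and 24.7 from 79 reads, and the nearest wild-type heart or lung region was 321640 bp away. In the synaptic vesicle list, Nrxn3, a presynaptic adhesion gene, led with chr12:89555006-89555451, at 13.9 in wild-type brain, 17.5 in R567W brain and 9.08 in R567W lung. Its next site, chr12:89241656-89241889, had 12.4 and no R567W peak.

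Among ion channels, the promoter of Kcnma1, the large-conductance calcium-activated potassium channel, had a site at chr14:24004581-24005382 with 20.2 in wild-type and 17.4 in R567W brain. Among transcription factors, a Myt1l intron site had 13.3 and 9.89, and a Foxp2 intron site had 12.9 with no R567W peak. Among glial genes, the promoter of Ptprz1, a receptor phosphatase of radial glia and oligodendrocyte precursors, had 8.88 from 23 reads and no R567W peak.

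A brain-only site lay at the start of 749 protein-coding genes. That was 3.42% of all 21924 protein-coding genes. They included 32 of the 221 neural genes and 3 of the 121 others, namely Hcn4, Myocd and Etv5. Beside those named above, the neural genes included the vesicle genes Slc32a1 and Syn1, the receptor gene Grm5, the adhesion genes Lrrtm1, Lrrtm4 and Nlgn1 and the transcription factor genes Eomes, Olig2 and Pou3f2. Of the neural genes, Dscam, Unc13a and Ptprz1 had no R567W brain peak at their start site, and Lrrtm1 had one at only 1 of its 2 sites. Wild-type fold enrichment at the starts of the neural genes ranged from 3.41 at Efna5 to 27.4 at Grik2.

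The protein-coding genes with most brain-only sites were long, and several are known for roles in neurons. Apart from Gm20388, an annotated readthrough model of 4435 kb with 36 among 202 sites, Dpp6 and Cdh13 led with 10 each, of 17 and 20 wild-type brain sites. They were followed by Tmem132b with 9 of 14, Fgfr2 with 9 of 68, Csmd2 with 8 of 9 and Csmd1 with 8 of 12. Rbfox1 had 8 of 23, Anks1b 7 of 13 and Igsf21 7 of 16. Fgfr2 is annotated here over 2961 kb, and whether its sites belong to that gene alone was not examined. Lung-only sites numbered 0 or 1 in each of these genes except Fgfr2, where they were 33 of 96, and Gm20388, where they were 57 of 229.

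The sites within such a gene did not behave alike. Of the 10 in Dpp6, 6 had an R567W brain peak. Beside the 2 described, the values in wild-type and R567W brain were 10.2 and 13.6 at an internal promoter, 9.99 and 12.1 and then 13.7 and 6.95 at intronic sites, and 6.29 and 9.27 at chr5:27677347-27677714. The 4 without such a peak had wild-type values of 10.4, 8.14, 3.70 and 2.89. In Csmd1, 3 of 8 recurred, and the strongest, chr8:17393938-17394311, with 13.5 from 45 reads in wild-type brain, did not. In Csmd2, 5 of 8 recurred. The strongest, chr4:127989497-127989974, had 18.4 from 69 reads in wild-type and 11.1 from 34 reads in R567W brain, and chr4:128383763-128384227 had 11.1 from 29 reads and 22.5 from 67 reads. The other 3 had 4.10, 5.92 and 4.57 in wild-type and 4.63, 4.63 and 4.07 in R567W brain. In Igsf21, which encodes a synaptic adhesion protein, 6 of 7 recurred, and the 2 sites nearest its start had 7.64 and 10.7 in wild-type and 14.7 and 16.5 in R567W brain. Its other 4 had 5.32, 7.03, 9.99 and 6.66 in wild-type and 9.27, 8.28, 12.4 and 6.52 in R567W brain. In Anks1b, which encodes a postsynaptic protein, 5 of 7 recurred, and its 2 promoter sites had 11.5 and 5.25 in wild-type and 20.2 and 12.1 in R567W brain. Its 3 recurring intronic sites had 12.7, 6.29 and 16.3 in wild-type and 20, 5.30 and 6.99 in R567W brain.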

How the data were processed

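CTCF ChIP-seq peak lists of 6 libraries were used, and the 6 input libraries were not analysed here. Per the study's methods, reads were trimmed (Trim Galore) and mapped (Bowtie2) against joined mouse mm10 and human hg38 genomes, and the authors used the unique mouse reads of high mapping quality for MACS2 peak calls with default settings on each library. The control input of each list was not stated in the sources used here. The deposited score was left aside. Fold enrichment as deposited is a ratio of summit reads to local background, and the deposited p-values and q-values are given as −log10 values.

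Lines sharing a region were counted once and regions were merged with bedtools 2.31.1. Summit reads were recovered by solving fold enrichment and p-value together, which succeeded for 100% of regions, and relative depth ranged from 7.14 to 9.27 reads per kb. The core motif was a 19-column matrix learned from the 2000 strongest wild-type brain peaks and called at p of 0.0001. Sequence and repeat masking came from RefSeq's GRCm38 and genes from GENCODE M21. Standardised differences weighted 10 strength classes as in the brain-only sites. Intervals are Wilson for shares and Newcombe for differences, at 95%.

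Members, gene lists and motifs were chosen with earlier results of these data known, and the motif letters and repeat words were chosen after their values were seen. Sites named were the 8 strongest, the 6 strongest without an R567W brain peak, the 6 strongest in both brain libraries alone, the 3 strongest in all R567W organs, the 2 strongest of each neural list and the 10 protein-coding genes with most sites. Some of these sites and genes are not reported here. No test was made between genotypes. Alternatives were the q-value threshold, the absence distance, the list length, autosomes alone, motif and promoter settings, the strength standardisation and the gene distance. Recovery of reads and motifs was tested on simulated data.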

Additional observations from a re-analysis of the deposited data

How the results depend on the processing

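The 43 pairs of a result and an alternative included counts and shares, which have no direction to reverse. The differences in R567W brain share, from shared sites and by upstream motif, stayed negative under every alternative run on them. Differences by motif letter and by position were not among these pairs. At equal fold enrichment the intergenic difference and that of the T at column 12 turned their sign. In 23 of the 43 pairs the share or difference stayed within its counting interval or the number of sites within 1.5 times. Requiring a −log10 q-value of at least 5 in all lists gave an R567W brain share of 55.1%, a core motif share of 73.9% and a difference from shared sites of -30.5 points. Requiring it of the wild-type brain list alone gave 57.9%, 75.4% and -28.8 points, an R567W heart or lung share of 13.8% and a promoter share of 15.9%. Leaving out sites within 1 kb of a heart or lung region gave a promoter share of 17%. Shortening the 3 wild-type lists to the length of the heart list moved all but 1 of the 7 results it was run on. Sites then count as brain-only when their lung peak was cut. Equal length gave 2090 sites and a difference of -9.45 points. Of these sites, 86.0% had an R567W brain peak, 54.9% an R567W heart or lung peak, 85.0% a core motif and 15.7% a promoter. A motif p of 1e-05 gave a core share of 43.6%, a promoter distance of 2 kb gave 25.8%, and matching fold enrichment or summit reads gave differences of -15.7 and -12.1 points. Giving each site to its nearest protein-coding start put the brain-only share around neural genes at 24.2%.

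No paired analysis was possible because there was 1 library per organ and genotype and the labels carry no replicate numbers. The absence of a peak means that no region was called, not that CTCF was absent, and at the 16 reads typical of these summits a site near the threshold can be missed in a second library. Peak lists carry no spike-in correction, so levels in wild-type and R567W libraries compare these libraries and not the genotypes.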

Other observations

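Brain-only sites were spread over the genome with some local concentrations. Chromosome 5 had the highest brain-only share of wild-type brain sites, 17.3% (436 of 2527, Wilson interval 15.8 to 18.8), and the X chromosome had 10.4% (8.56 to 12.6). The median 1 Mb window held 1 brain-only site over 2410 windows. The window at chr5:126000001-127000000 had 12 among 16 wild-type brain sites, and the window before it, which holds Tmem132b, had 15 among 46. Of all brain-only sites, 881 (18.7%) lay within 20 kb of another. No matching share of shared or lung-only sites is given, so whether this differs from other CTCF sites was not tested.

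Letters of other DNA-binding families were counted within 100 bp of summits that had no core motif and no promoter. The homeodomain word TAATTA was present at 5.87% of these brain-only windows, against 2.78% of lung-only and 3.33% of shared ones, and at 5.30% of their own flanks. The word CAGCTG, an E-box, was present at 12.8% of brain-only, 17.5% of lung-only and 14.1% of shared windows, and at 9.14% of flanks. The forkhead word TGTTTAC was present at 1.69% of brain-only and 4.08% of lung-only windows, with 1.69% in flanks. The SP/KLF word GGGCGGG was present at 3.05% of brain-only and 5.90% of lung-only windows. The ETS word CCGGAAG and the ZNF143 word ACTACAA were less frequent at brain-only than at shared windows, with differences of -1.15 points (-2.08 to -0.07) and -1.45 points (-2.52 to -0.24). Of 20 words counted on both strands, these 6 are named because their 95% interval of the difference from lung-only or shared windows left out 0, without adjustment for the 20 words.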
